A study of Mus musculus with 35 samples.

Results

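Selenoproteins carry the amino acid selenocysteine, and 10 of their genes were followed here in mouse microglia from 3 brain regions: Gpx1, Gpx3, Gpx4, Txnrd1, Selenow, Selenoh, Selenom, Selenok, Selenon and Selenop. They were taken by symbol, and all 10 were found among the 21236 genes of the table. Microglia were sorted as tdTomato positive cells from the midbrain, striatum and prefrontal cortex (PFC) of 12 adult mice, 6 female and 6 male. Every mouse was heterozygous for Tmem119-2A-CreERT2 and for the Ai14(RCL-tdTomato)-D reporter, and every mouse had received tamoxifen, so that no group lacked the alleles or the drug. Cre was driven from the Tmem119 locus, which limits the sort to cells that used this microglial gene when tamoxifen was given. There were 12 midbrain, 12 striatum and 11 PFC samples. The study lost a male PFC sample without naming the mouse, and by the labels mouse 3, a male, had none. Total counts lay between 37680501 and 54131421 per sample. Values are given as CPM, counts scaled to library size with TMM factors. In sorted bulk RNA, fewer cells with a transcript and less of it per cell cannot be told apart.

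Selenocysteine is put in at a UGA codon, which elsewhere ends translation, and a hairpin in the transcript's tail and a dedicated elongation factor and tRNA are needed to read it. Most selenoproteins are redox enzymes that hold selenocysteine in the active site. Glutathione peroxidases reduce hydrogen peroxide and lipid peroxides, thioredoxin reductases keep thioredoxin reduced, and Selenop is a secreted selenium carrier. Microglia, the resident macrophages of the brain, make superoxide and peroxide as part of their defence and are exposed to both.

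The selenocysteine codon of 6 members is shown because it is the feature that makes these genes a group and because these 6 hold the members that differed between regions or sexes, together with Gpx4 for comparison within its family. Each run is coding sequence, 5′ to 3′, from GENCODE M21 transcripts (GRCm38), with 30 bases on each side of the codon, which is in capitals.
Selenow: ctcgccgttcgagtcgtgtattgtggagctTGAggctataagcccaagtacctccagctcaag
Selenoh: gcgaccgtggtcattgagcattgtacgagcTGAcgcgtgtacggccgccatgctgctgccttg
Selenom: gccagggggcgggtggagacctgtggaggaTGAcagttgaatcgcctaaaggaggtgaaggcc
Gpx1: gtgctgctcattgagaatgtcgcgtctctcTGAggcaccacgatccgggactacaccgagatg
Gpx3: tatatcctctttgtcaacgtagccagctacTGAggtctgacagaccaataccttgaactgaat
Gpx4: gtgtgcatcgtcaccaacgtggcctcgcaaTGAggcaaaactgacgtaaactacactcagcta

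The codon lies at chr7:15920464-15920466 on the minus strand for Selenow, and at chr2:84670381-84670383 on the minus strand for Selenoh. It lies on the plus strand at chr11:3516273-3516275 for Selenom, at chr9:108339451-108339453 for Gpx1, at chr11:54907256-54907258 for Gpx3 and at chr10:80054737-80054739 for Gpx4. It is exonic and coding in each. Selenow, Selenoh and Selenom have a cysteine codon (TGT) 3 codons before the selenocysteine codon, the arrangement known from thioredoxin-like selenoproteins, and no other member has one there. The 60 flanking bases of Gpx1 and Gpx4 were identical at 32 positions, those of Gpx3 and Gpx4 at 26 and those of Gpx1 and Gpx3 at 24. Selenop had 10 selenocysteine codons, at positions 59 to 377 of 380, and each other member had 1. In Txnrd1 and Selenok it lay at the end of the protein, at position 612 of 613 and 92 of 94. All 10 members had RefSeq promoters (GRCm38.p6, 17 windows of 300 bases). The antioxidant response core TGACNNNGC, searched on both strands, occurred among these 17 in 1 window of Txnrd1 and 1 of Selenok. Over all 32851 promoter windows it occurred in 12.39%. The palindromic estrogen response core occurred in none of the 17 and in 0.07% of all.

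Per kilobase of exon (RPKM), the members spanned more than 3 orders of magnitude, and the top of the order was alike in the 3 regions. Selenop, the selenium carrier, was highest, at 1473 ± 133 RPKM (SD, n = 12) for midbrain samples, 1554 ± 112 (n = 12) for striatum samples and 1595 ± 215 (n = 11) for PFC samples. Gpx1, the cytosolic glutathione peroxidase, followed at 969 ± 196, 703 ± 186 and 773 ± 176 RPKM. Selenop exceeded Gpx1 in every sample, although their ranges over samples touched in the midbrain (lowest Selenop 1264, highest Gpx1 1274 RPKM). Selenok, a small membrane protein of the endoplasmic reticulum, came next at 126 ± 16.1, 121 ± 13.7 and 131 ± 21.9 RPKM and did not overlap with its neighbours. Gpx4, which reduces lipid peroxides within membranes, and Selenow, a small cytosolic protein, followed and could not be ordered in the midbrain: Gpx4 was the higher in 6 of 12 samples there, in 8 of 12 in the striatum and in 8 of 11 in the PFC. Selenoh, a nuclear protein, lay at 13.9, 13.4 and 15.6 RPKM, with a range that overlapped that of the next gene in each region. Below it Txnrd1, the cytosolic thioredoxin reductase, and Selenon, an endoplasmic reticulum protein whose loss causes a muscle disease, overlapped in every region at means of 5.28 to 7.59 RPKM. Selenom, a thioredoxin-like protein of the endoplasmic reticulum, had lower means of 4.31, 4.47 and 3.61 RPKM but overlapped with them. Selenon exceeded Selenom in only 6 of 12 midbrain and 5 of 11 PFC samples, and Txnrd1 exceeded Selenom in 8 of 12 striatum samples. Gpx3, the secreted glutathione peroxidase, had the lowest means at 1.17, 0.252 and 0.189 RPKM. The 10 members together summed to 6026 ± 633 CPM in the midbrain, 5857 ± 499 in the striatum and 6100 ± 800 in the PFC (SD), and Selenop gave 69.5%, 75.4% and 74.3% of these sums.

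**Figure D1:**
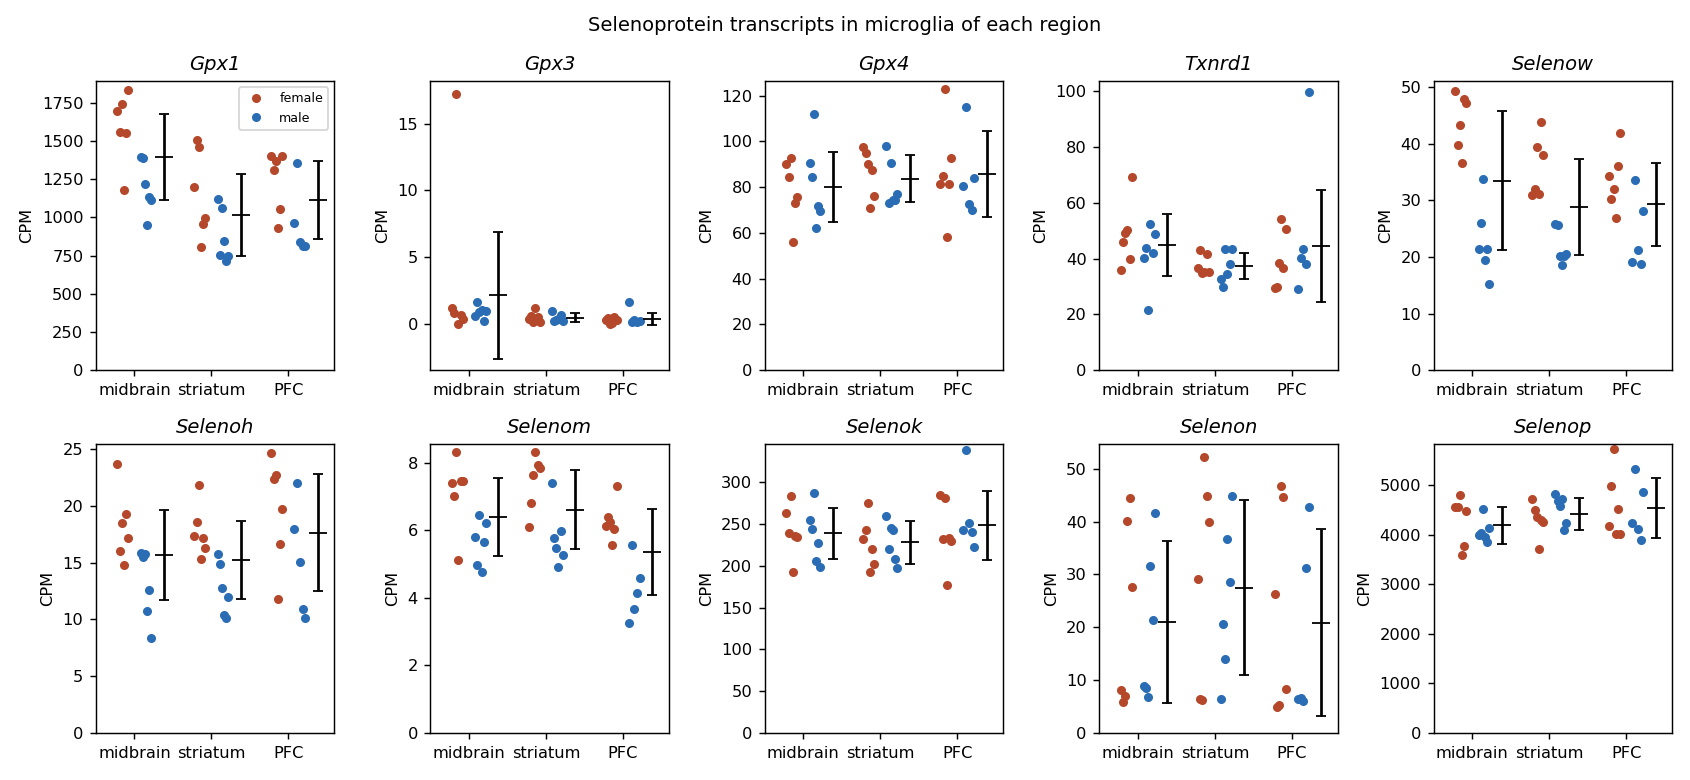
CPM (y axis) of each of the 10 members in the samples of the midbrain, striatum and PFC (x axis); points are samples, female in red and male in blue, and the bar beside them is the mean ± SD over both sexes. Gpx1 was highest in the midbrain, female and male points of Selenow kept apart in the midbrain and striatum and met in the PFC, those of Selenoh and Gpx1 overlapped, and Gpx3 reached 17.2 CPM in 1 midbrain sample.

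The sorted cells carried all 10 microglial markers, which summed to 39873 ± 1382 CPM in the midbrain, 44441 ± 2209 in the striatum and 43358 ± 1777 in the PFC. Markers of other cells were low. The region effect was called for 5 of 10 microglial markers, where 8.89% of all genes were called. Among markers of other cells it was called for 5 of 10 neuronal, 5 of 10 astrocyte and 3 of 5 ependymal and choroid plexus markers. It was called for 1 of 10 of the oligodendrocyte lineage, 1 of 7 border macrophage, 0 of 8 endothelial and 0 of 5 erythrocyte markers. The 10 neuronal markers summed to 6.40 ± 1.41, 11.6 ± 2.97 and 17.3 ± 6.34 CPM, with 6 of them under a mean of 1 CPM. The 10 astrocyte markers, led by Slc1a3, summed to 252.9 ± 21.05, 404.5 ± 76.2 and 377.5 ± 98.1 CPM, and the 10 of the oligodendrocyte lineage, led by Cnp, to 402 ± 61.8, 483 ± 151 and 338 ± 97.0 CPM. Sums of 8 endothelial markers were 30.2, 41.6 and 32.4 CPM and those of 5 erythrocyte markers 32.6, 31.1 and 9.51 CPM. Sums of the 5 ependymal and choroid plexus markers had means of 8.57 ± 5.56, 25.0 ± 42.3 and 6.47 ± 0.890 CPM and medians of 6.69, 7.47 and 6.39, the striatum of male mouse 1 standing at 150.7 CPM and that of male mouse 9 at 56.8. Those of the 7 border macrophage markers had means of 16.9 ± 33.9, 6.66 ± 2.27 and 7.26 ± 1.97 CPM and medians of 6.86, 6.22 and 7.34, the midbrain of mouse 6 standing at 123.5 CPM. A fit with an index of other brain cells as a covariate is given below for each result that it changed. The index leaves out the microglial and border macrophage markers.

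The main effect of brain region was called for 3 of the 10 members, Gpx1 (adjusted p = 0.00529), Selenom (adjusted p = 0.0353) and Gpx3 (adjusted p = 0.0353), by edgeR's quasi-likelihood test at an adjusted p under 0.05. Over all genes 8.89% were called. The deposited table held genes with at least 1 CPM in some group of region and sex, and Gpx3 had such a mean only in the female midbrain (3.37 CPM). Its calls thus rest on the group that brought it into the table and are no independent support. In the pairs of regions a call needed the region effect, an unadjusted p under 0.05 and a fold change over 1.2. From midbrain to PFC, 0 members rose and 3 fell, where 2.75% of all genes were called higher in the PFC and 3.24% lower. From midbrain to striatum 0 rose and 2 fell (Gpx1 and Gpx3), where 3.5% of all genes were called higher in the striatum and 2.98% lower. Between striatum and PFC, Selenom was called higher in the striatum, and 0 members were called lower, where 2.31% and 0.833% of all genes were. The median log2 fold change of the 10 members was -0.020 for PFC over midbrain, -0.056 for striatum over midbrain and -0.036 for striatum over PFC, beside 0.011, 0.012 and 0.008 over all genes.

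Gpx1 was highest in the midbrain. It ran from 953 to 1836 CPM with a median of 1393 in the midbrain, from 712 to 1504 with a median of 978 in the striatum, and from 811 to 1402 with a median of 1057 in the PFC. The ranges overlapped between regions, but each mouse's own striatum sample was below its own midbrain sample. On the log2 scale Gpx1 fell by 0.46 ± 0.10 (SE) from midbrain to striatum (adjusted p = 0.0037) and by 0.34 ± 0.11 from midbrain to PFC (adjusted p = 0.0428). Within mice the striatum was lower in 12 of 12 (two-sided exact sign-flip test, p = 0.000488, the smallest that 12 pairs can give, of 30 such tests) and the PFC in 10 of 11 (exact p = 0.00195). Adjusted over the 30 tests, these p-values were 0.01465 and 0.0293. Striatum and PFC differed by -0.12 ± 0.11, with an adjusted p of 0.723. Gpx1 remained called for region whichever mouse was left out, with the mouse as a block, and with the index of other brain cells as a covariate. In mice 7 to 12 alone it was called (striatum over midbrain -0.60, adjusted p = 0.00179), and in mice 1 to 6 alone it was not called for region, with -0.36 (adjusted p = 0.0957). The sum of microglial markers was lowest in the midbrain, and its part in the result was not tested.

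**Figure D2:**
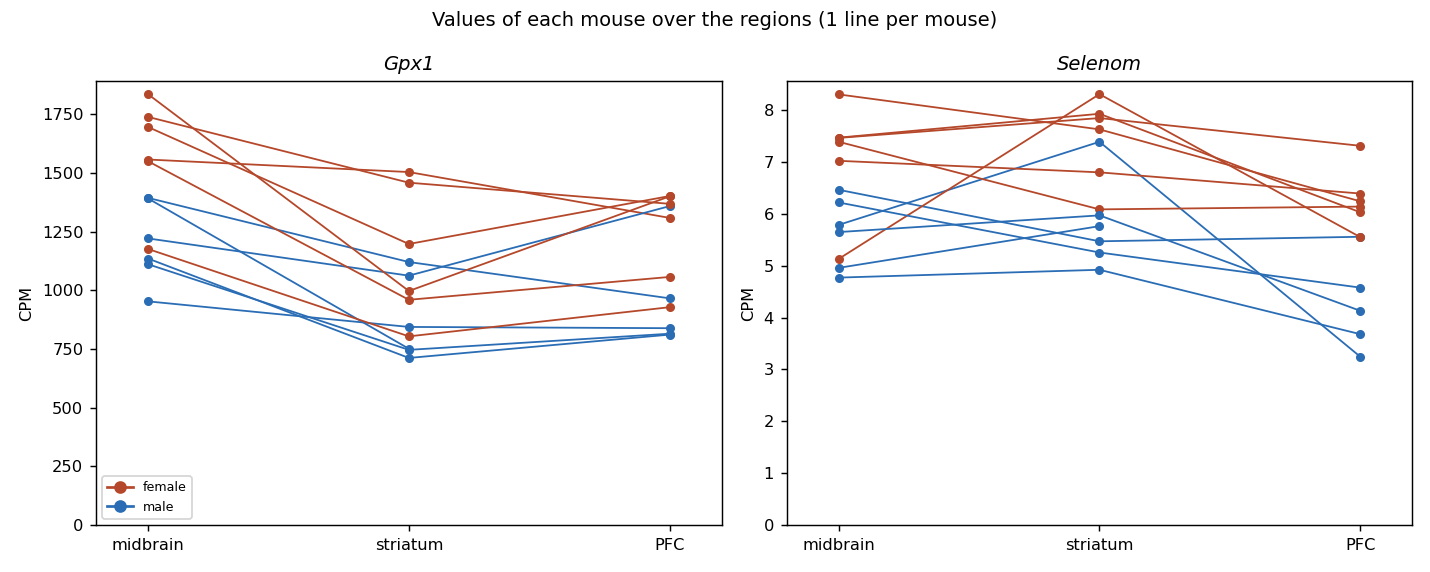
CPM (y axis) of Gpx1 and Selenom in the midbrain, striatum and PFC (x axis), with 1 line for each of the 12 mice, female in red and male in blue. All 12 lines of Gpx1 fall from midbrain to striatum, and 10 of 11 lines of Selenom end lower in the PFC than they start in the midbrain.

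Selenom was lowest in the PFC. Its values ran from 4.77 to 8.30 CPM in the midbrain (median 6.34), from 4.92 to 8.31 in the striatum (median 6.44) and from 3.24 to 7.31 in the PFC (median 5.56). Midbrain and striatum covered nearly the same range, and the 4 lowest samples of all were male PFC samples. Selenom fell by 0.29 ± 0.10 (SE, log2) from midbrain to PFC (unadjusted p = 0.00469, adjusted p = 0.0646), and the striatum exceeded the PFC by 0.34 ± 0.10 (unadjusted p = 0.00114, adjusted p = 0.0895). The PFC was lower than the midbrain in 10 of 11 mice (exact sign-flip p = 0.00293), and the striatum was higher than the PFC in 9 of 11 (exact p = 0.00391). Adjusted over the 30 exact tests, both p-values were 0.0293. Midbrain and striatum differed by 0.050 ± 0.093, with an adjusted p of 0.829. The region call was lost when mouse 1, 6, 7, 9, 10 or 11 was left out, although the log2 difference between PFC and midbrain then stayed between -0.29 and -0.25. It was also lost with the index of other brain cells as a covariate, at -0.30 for PFC over midbrain (adjusted p = 0.053) and 0.27 for striatum over PFC (adjusted p = 0.586). With mouse 3's sample taken as the PFC that its column name gives, Selenom was not called, at -0.25 (adjusted p = 0.118) and 0.30 (adjusted p = 0.169). It was not called in mice 1 to 6 alone (-0.31 and 0.30) or in mice 7 to 12 alone (-0.26 and 0.37) either. Neuronal markers, listed above, were highest in the PFC; their part in the result beyond this fit was not tested.

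Gpx3 was the lowest member, with a median of 16 counts over the 35 samples and 3 or fewer counts in 3 of them, and its highest value came from a single midbrain sample. In the midbrain it ran from 0 to 17.2 CPM with a median of 0.828, in the striatum from 0.140 to 1.16 with a median of 0.359, and in the PFC from 0 to 1.65 with a median of 0.232, where 3 counts are worth 0.0554 to 0.0796 CPM. The 17.2 CPM belonged to the midbrain of female mouse 6, and the other 34 samples reached 1.65 CPM at most. By sex and region, the female midbrain had a mean of 3.37 CPM and the other groups had means of 0.243 to 0.862 CPM. The fitted log2 difference was -2.45 ± 0.76 (SE) for PFC over midbrain (adjusted p = 0.0454) and -2.08 ± 0.72 for striatum over midbrain (adjusted p = 0.0711). Without mouse 6 these were -0.98 (adjusted p = 0.404) and -0.59 (adjusted p = 0.602), and the region effect was not called. The call was lost too when mouse 2, 3, 4, 5, 7, 10, 11 or 12 was left out, although the difference between PFC and midbrain then stayed between -2.54 and -2.39. It was also lost with the mouse as a block (PFC over midbrain -1.85, adjusted p = 0.177) and with a term for mice 1 to 6 against 7 to 12. Within mice the PFC was lower than the midbrain in 9 of 11 (exact p = 0.0332) and the striatum in 9 of 12 (exact p = 0.295). Adjusted over the 30 exact tests, these p-values were 0.142 and 0.402.

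The midbrain sample of mouse 6 also had the highest border macrophage sum, 123.5 CPM, where the next sample had 18.7 CPM. All 7 measured markers had counts in it, and 4 of them were at their highest there. Ms4a7, a marker of macrophages at the brain's borders, stood at 97.9 CPM against at most 4.79 CPM elsewhere, and Mrc1, the mannose receptor of these cells, at 16.4 against at most 8.51. Cd163 and Clec10a, further markers of these cells, had 0.304 and 0.043 CPM. The genes most like Gpx3 over the 35 samples, among the 8623 genes averaging 8 CPM or more, were H2-Ab1 (Pearson r = 0.66), Igkc (r = 0.66) and H2-Eb1 (r = 0.61). Each had its highest value in this sample, which is partly built in, since they were picked for likeness to Gpx3 and Gpx3 peaks there. Igkc averaged 14.0 CPM over all samples with a median of 1.61 over the other 34, and so passed the 8 CPM cut through this sample. H2-Ab1 and H2-Eb1, chains of MHC class II, were at 1187 and 389 CPM there, against at most 389.5 and 90.3 CPM elsewhere, and Igkc, the kappa light chain of antibodies, at 352 against at most 71.4. Their part in the Gpx3 value was not tested. For Gpx1 the most like genes were Dynll1 (r = 0.86), Gm8203 (r = 0.86) and Abracl (r = 0.85), and for Selenom Rnaseh2b (r = 0.74), Nans (r = 0.71) and Selenow (r = 0.69). These r values are descriptions, since the samples share mice.

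The other 7 members did not pass the region test. Selenop differed by 0.11 ± 0.060 (SE, log2) for PFC over midbrain and 0.077 ± 0.059 for striatum over midbrain (adjusted p = 0.342 and 0.519), and its samples ran from 3592 to 5727 CPM over all regions. Within mice the PFC had more Selenop than the midbrain in 9 of 11 (exact p = 0.0449, or 0.1685 adjusted over 30 such tests). Gpx4 ran from 56.1 to 123.0 CPM, with differences of 0.096 ± 0.10 and 0.062 ± 0.10. Selenok, from 176 to 338 CPM, had 0.057 ± 0.080 and -0.067 ± 0.079. These 3 were the steadiest members, with a coefficient of variation over all samples of 10.5% for Selenop, 13.9% for Selenok and 17.8% for Gpx4. Selenow ran from 15.2 to 49.4 CPM and had -0.17 ± 0.11 and -0.19 ± 0.11. Selenoh ran from 8.40 to 24.7 CPM and had 0.16 ± 0.13 and -0.046 ± 0.12. Txnrd1 had -0.014 ± 0.16 and -0.27 ± 0.15, and 1 male PFC sample, of mouse 11, reached 99.7 CPM where the highest of the other 34 samples had 69.2. The neuronal sum of that sample, 31.5 CPM, was also the highest of all, and its oligodendrocyte lineage sum, 530 CPM, ranked 4 of 35. The PFC of male mouse 5, with the next highest neuronal sum at 25.7 CPM, had 40.3 CPM of Txnrd1. The part of these cells in the Txnrd1 value was not tested.

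**Figure D3:**
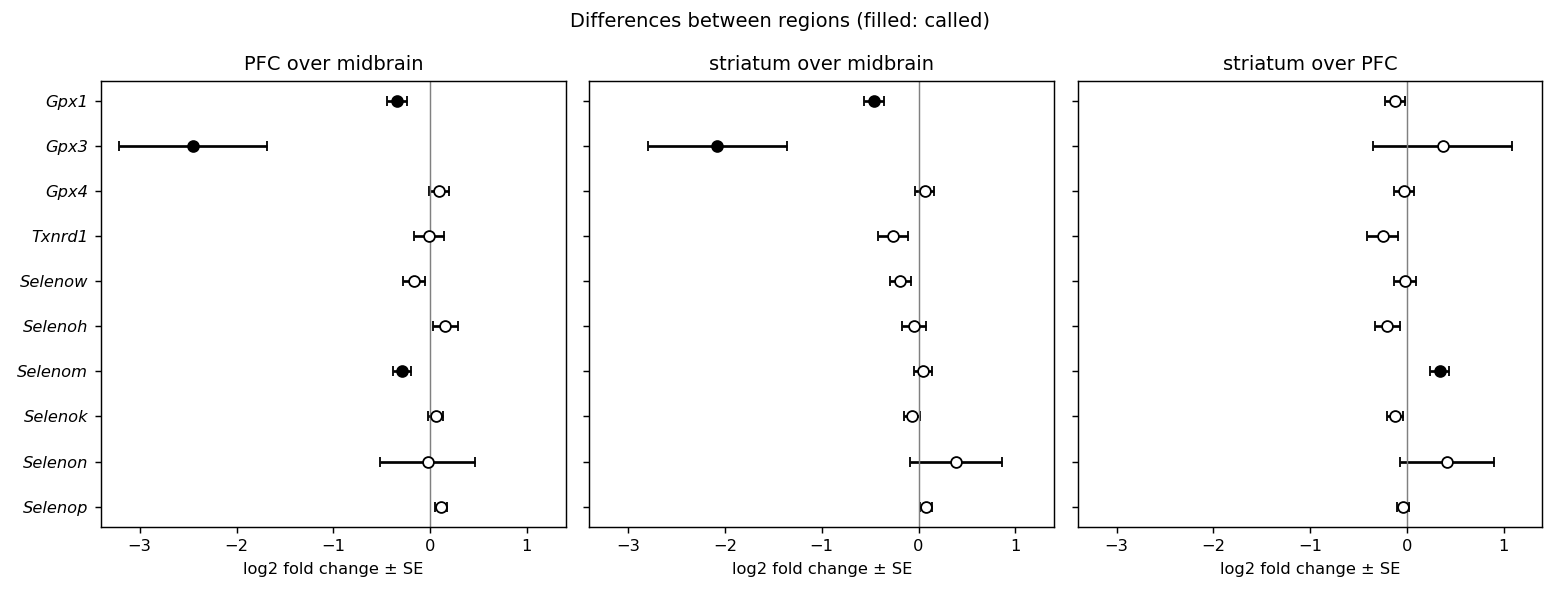
Log2 fold change ± SE (x axis) of the 10 members (y axis) for PFC over midbrain, striatum over midbrain and striatum over PFC; filled points are called. Gpx1 and Gpx3 are filled in both comparisons with the midbrain, Selenom in both comparisons with the PFC, and the bars of Gpx3 and Selenon are the widest.

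Selenon varied widely between mice, with a coefficient of variation of 70.6% over all samples, and it did so by mouse number. In mice 1 to 6 it had a mean of 10.4 ± 7.55 CPM (SD, 17 samples) with a median of 6.72, and in mice 7 to 12 a mean of 35.2 ± 12.9 (18 samples) with a median of 39.9. In the midbrain the 2 sets did not overlap, at 5.80 to 8.87 against 21.4 to 44.4 CPM. In the striatum they overlapped little, at 6.28 to 29.1 against 28.5 to 52.3. In the PFC most samples followed the same split, with mouse 2 at 26.2 CPM among the first 6 mice and mice 7 and 12 at 6.01 and 8.38 CPM among the last 6. The labels do not say what distinguishes these mice, and each set holds 3 females and 3 males. Across regions the differences were 0.39 ± 0.48 (SE, log2) for striatum over midbrain and 0.41 ± 0.49 for striatum over PFC, neither called. Compared within mice, the striatum was higher than the midbrain in 10 of 12 (exact sign-flip p = 0.0273) and higher than the PFC in 9 of 11 (exact p = 0.0107, of 30 such tests). Adjusted over the 30 tests, these p-values were 0.137 and 0.06445. With the mouse as a block the striatum exceeded the PFC by 0.57 (unadjusted p = 0.0299, adjusted p = 0.235). The region effect in that fit was called for Selenom and Gpx1 and not for Selenon.

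The other members had these levels in the 2 sets of mice. Gpx3 had means of 1.59 and 0.420 CPM and medians of 0.537 and 0.308, the first set holding the midbrain of mouse 6. Gpx1 had means of 1323 CPM in mice 1 to 6 and 1037 in mice 7 to 12, Gpx4 93.1 and 73.7, Selenoh 18.6 and 13.8, Selenok 260.1 and 217, and Selenop 4623 and 4140. Txnrd1 had 36.7 and 47.4, higher in the second set like Selenon. Selenow had 31.6 and 29.6 and Selenom 6.27 and 6.01. These means were not tested against each other. Over samples Selenon ran against Selenok (r = -0.69), Gpx4 (r = -0.65) and Selenoh (r = -0.55), as a description over 35 samples that share mice.

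**Figure D4:**
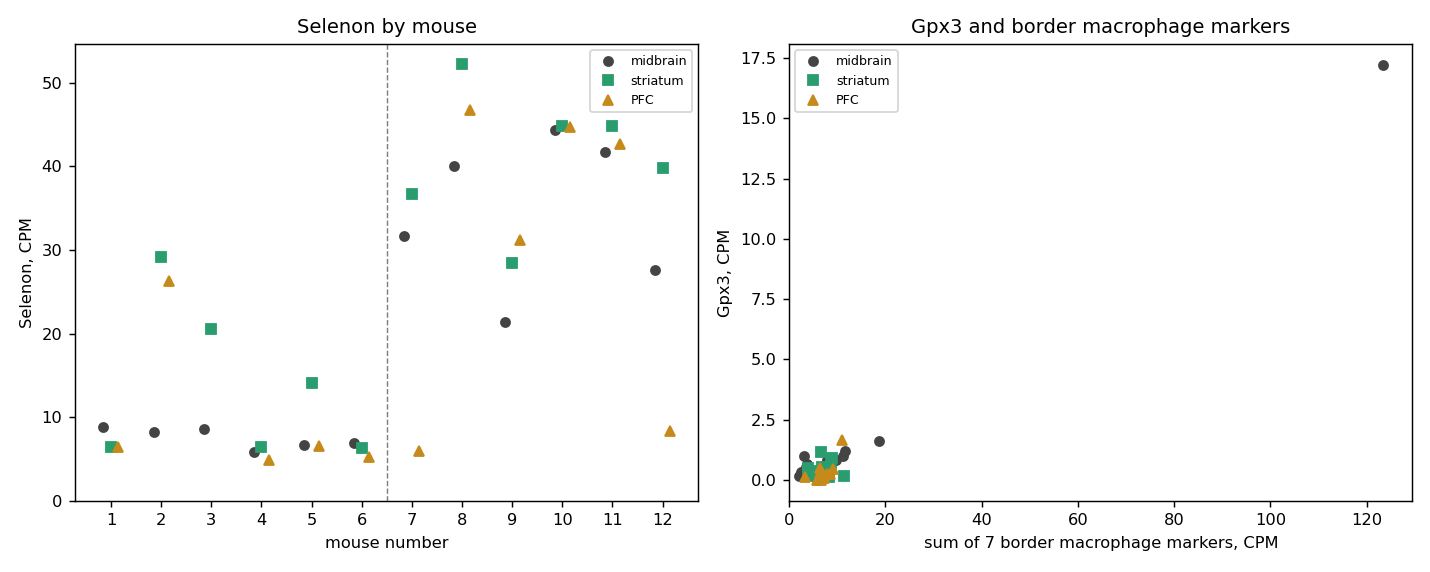
Left, Selenon CPM (y axis) by mouse number (x axis), with a dashed line between mice 6 and 7; right, Gpx3 CPM (y axis) against the summed CPM of 7 border macrophage markers (x axis); each point is a sample and the symbol gives the region. Selenon is higher in most samples of mice 7 to 12, and the single sample at the upper right is the midbrain of mouse 6.

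Sex was compared across regions in the same fit, as female over male, with a call at an unadjusted p under 0.05 and a fold change over 1.2. Of the 10 members 4 were called higher in females, Selenow, Selenoh, Selenom and Gpx1, and 0 lower, where 1.48% of all genes were called higher and 2.66% lower. These genes had already been named for sex in the study of these same samples, so their direction here is not independent evidence. The median log2 fold change of the 10 members was 0.31, beside -0.003 over all genes.

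Selenow had the largest difference. Its per-mouse means ran from 31.5 to 42.6 CPM in the 6 females and from 19.8 to 29.2 in the 6 males, so that the sexes did not overlap. By region, females had 36.5 to 49.4 CPM (median 45.3) and males 15.2 to 33.8 (median 21.4) in the midbrain, 30.9 to 43.9 (median 34.9) and 18.6 to 25.8 (median 20.3) in the striatum, and 26.8 to 41.9 (median 33.1) and 18.8 to 33.6 (median 21.3) in the PFC. Only in the PFC did the ranges meet, where male mice 5 and 11 had 33.6 and 28.05 CPM. Selenow was higher in females by 0.72 ± 0.092 (SE, log2; adjusted p = 8e-06), 1.64-fold, and over per-mouse means by 0.72 (two-sided exact permutation p = 0.00216, the smallest that 6 against 6 can give, of 10 such tests). Male PFC mice 5 and 11 had the 2 highest neuronal sums, 25.7 and 31.5 CPM. The next highest, 20.5 CPM, was that of male PFC mouse 9, whose Selenow of 18.8 CPM was the lowest of the male PFC. The part of neuronal RNA in these values was not tested.

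Selenom was higher in females by 0.42 ± 0.078 (SE, log2; adjusted p = 0.00545), with per-mouse means of 6.33 to 7.54 CPM in females and 4.46 to 5.83 in males that did not overlap (exact p = 0.00216). Selenoh was higher by 0.44 ± 0.10 (adjusted p = 0.0415), at 14.0 to 21.9 CPM per mouse against 10.2 to 16.9, with overlap (exact p = 0.0238). Gpx1 was higher by 0.40 ± 0.086 (adjusted p = 0.0256), at 969 to 1522 against 878 to 1214 CPM per mouse, also with overlap (exact p = 0.0216). Adjusted over the 10 exact tests, the p-values were 0.0108 for Selenow and Selenom and 0.0595 for Selenoh and Gpx1. With the mouse as the unit, Selenoh and Gpx1 thus stayed above the adjusted cut-off used for the region effect. All 4 stayed past the call rule in every alternative fit. Because the samples of a mouse are not independent for sex, counts were also summed per mouse: the log2 differences were then 0.71 for Selenow, 0.39 for Selenom, 0.44 for Selenoh and 0.39 for Gpx1, and the adjusted p was 0.0232 for Selenow and 0.735, 1 and 0.973 for the others. In mice 1 to 6 and in mice 7 to 12 Selenow was higher in females by 0.51 (adjusted p = 0.323) and 0.92 (adjusted p = 0.0002). Marker sums of the sexes were 42380 ± 2904 CPM in females and 42699 ± 2476 in males for microglia and 10.7 ± 3.58 and 12.5 ± 7.72 for neurons (SD, 18 and 17 samples). All 10 oligodendrocyte lineage markers were below 0 for female over male, with a median log2 fold change of -0.21, 0 called and sums of 391 ± 91.6 and 429.6 ± 149 CPM. Ependymal and choroid plexus sums were 7.98 ± 5.47 and 19.4 ± 36.04 CPM (medians 6.45 and 7.29), and all 5 erythrocyte markers were above 0, with 0 called. Of all these markers 1 was called for sex, the neuronal Slc17a7, lower in females (-1.23 ± 0.36, SE, log2; adjusted p = 0.164). The part of these cells in the sex differences beyond the fit with the index, in which all 4 members stayed called, was not tested.

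**Figure D5:**
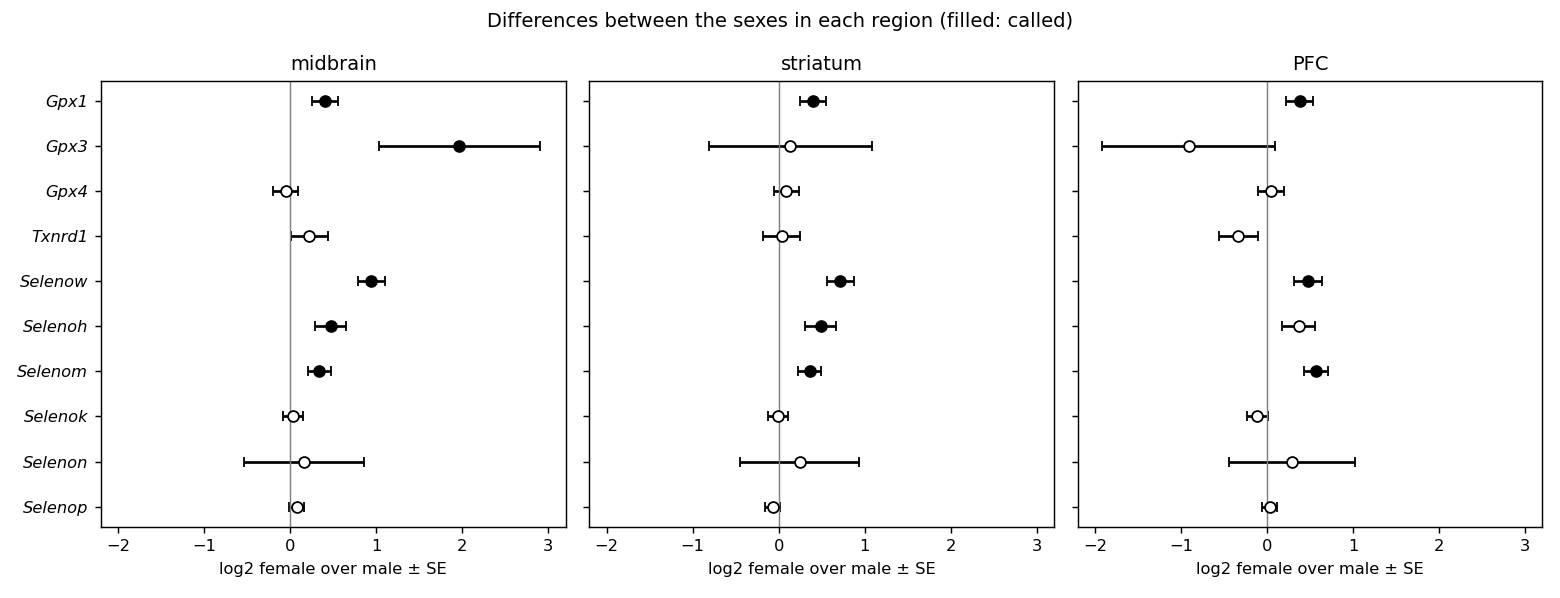
Log2 difference of female over male ± SE (x axis) of the 10 members (y axis) within the midbrain, striatum and PFC; filled points are called. Selenow, Selenom and Gpx1 are filled in all 3 panels and Selenoh in the midbrain and striatum, and the filled Gpx3 point of the midbrain rests on mouse 6.

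Within single regions the same 4 members led. In the midbrain 5 were called higher in females and 0 lower, Selenow (0.94 ± 0.15, SE, log2), Selenoh (0.47 ± 0.18), Gpx1 (0.41 ± 0.15), Selenom (0.34 ± 0.13) and Gpx3 (1.96 ± 0.93), where 2.22% of all genes were called higher and 2.62% lower. Gpx3 was not called when mouse 1, 5, 6, 7, 9 or 11 was left out, and its medians were 0.746 CPM in females and 0.910 in males. Its mean in the female midbrain was also what brought it into the table. Selenom was not called in the midbrain without mouse 6 either. In the striatum 4 were called higher and 0 lower, Selenow (0.72 ± 0.15), Selenoh (0.49 ± 0.18), Gpx1 (0.40 ± 0.15) and Selenom (0.36 ± 0.13), where 0.768% and 1.51% of all genes were. In the PFC 3 were called higher and 0 lower, Selenom (0.57 ± 0.14), Selenow (0.47 ± 0.16) and Gpx1 (0.38 ± 0.16), where 2.66% and 2.63% of all genes were, and Selenoh had 0.37 ± 0.19 (unadjusted p = 0.0621). At an adjusted p under 0.05 only Selenow in the midbrain passed (adjusted p = 0.00147). In the PFC, Gpx1 was not called when mouse 2, 7, 9, 11 or 12 was left out, and in the striatum when mouse 4 was. Selenoh was called in the PFC when mouse 1, 5 or 8 was left out, and without mouse 1 Txnrd1 was called there too, for 5 members in all. With the index of other brain cells as a covariate, Gpx3 was not called in the midbrain and Selenoh was called in the PFC. This index holds no border macrophage markers.

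The sex differences were not shown to differ between regions. The region by sex interaction was called for 0 members and 0% of all genes by edgeR, and the unadjusted p was under 0.05 for 0 members and for 632 genes of the table. DESeq2 also called 0 members with 0 at an unadjusted p under 0.05, and limma-voom called 0 with 1 at an unadjusted p under 0.05. The smallest interaction p among the members was that of Gpx3 (unadjusted p = 0.115), followed by Selenow (unadjusted p = 0.116), whose log2 difference was 0.94, 0.72 and 0.47 in midbrain, striatum and PFC. The other 6 members were not called for sex across regions: Selenop had 0.010 ± 0.049, Gpx4 0.025 ± 0.085, Selenok -0.028 ± 0.065 and Txnrd1 -0.018 ± 0.13 (log2, SE). The errors of Selenon (0.23 ± 0.39) and Gpx3 (0.47 ± 0.61) were several times wider.

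Of 14 other selenoprotein genes listed, 10 were in the table, and Gpx2, Dio1, Dio3 and Selenov were not analysed here. Selenof, a protein of the endoplasmic reticulum that helps check glycoprotein folding, was highest with 464 ± 53.2 CPM in the midbrain, 434 ± 42.5 in the striatum and 481 ± 72.2 in the PFC (SD). Region was called for 1 of the 10, near the 8.89% of all genes. The gene was Dio2, the deiodinase that makes active thyroid hormone. Dio2 is known from astrocytes, and it was at 0 in 6 of 12 midbrain, 2 of 11 PFC and 0 of 12 striatum samples, with means of 0.121, 0.567 and 0.718 CPM. Astrocyte markers were likewise lowest in the midbrain, and their part was not tested. For sex, 0 of these 10 were called, with 5 above and 5 below 0 and a median log2 fold change of -0.001.

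Genes that make and insert selenocysteine were listed as well. All 8 of them were in the table, 0 were called for region, where 8.89% of all genes were, and 0 for sex, and their sum was 241 ± 16.3 CPM in the midbrain, 241 ± 13.8 in the striatum and 247 ± 11.1 in the PFC (SD). Secisbp2l, a relative of the protein that binds the selenocysteine hairpin, was the highest of them at 62.7 ± 6.78 CPM over all samples. Lrp8, the receptor that takes up Selenop in the brain, was barely present, at 0.244, 0.552 and 0.287 CPM, and Lrp2 was not analysed here.

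Region calls in the lists of related enzymes are read beside the 8.89% called over all genes. Of 9 genes for glutathione synthesis and reduction, 2 were called for region: Ggt5, a gamma-glutamyltransferase, rose from midbrain to PFC by 0.41 ± 0.064 (SE, log2; adjusted p = 2.13e-05), and Glrx, glutaredoxin, differed between striatum and midbrain by -0.45 ± 0.10 (adjusted p = 0.00406). Ggt5 was lower in the striatum than in the PFC by -0.34 ± 0.064. Slc3a2, the heavy chain shared by the cystine importer, was the highest of the list at 465.9 ± 31.2 CPM (SD) over all samples. Of 10 thioredoxin and peroxiredoxin genes 2 were called: Txnip, which binds and inhibits thioredoxin, had 941 ± 211 CPM in the midbrain and 1315 ± 181 in the striatum (0.48 ± 0.11, adjusted p = 0.00327), and Prdx4, the peroxiredoxin of the endoplasmic reticulum, fell by 0.41 ± 0.10 from midbrain to PFC (adjusted p = 0.00878).

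Of 6 genes of lipid peroxidation and ferroptosis, 4 were called for region, Slc40a1, Acsl4, Lpcat3 and Gch1, beside 8.89% of all genes. No pair of regions was called for Acsl4 or Lpcat3. Slc40a1, the iron exporter ferroportin, had 238 ± 33.8 CPM in the midbrain, 329 ± 35.9 in the striatum and 359 ± 49.7 in the PFC (SD), with log2 differences of 0.59 ± 0.077 for PFC and 0.46 ± 0.075 for striatum over midbrain (adjusted p = 1.21e-06 and 8.16e-05). Gch1, which makes the precursor of tetrahydrobiopterin, differed by -0.77 ± 0.21 for striatum over midbrain (adjusted p = 0.0191) and by -0.44 ± 0.21 for striatum over PFC (unadjusted p = 0.0449, adjusted p = 0.415). Of 10 genes of Nrf2, the regulator of antioxidant genes, and its targets 1 was called for region, Cat, with no pair of regions past the fold change. Nfe2l2, which encodes Nrf2, was the highest of that list at 346 ± 46.9 CPM. Of 5 cysteine homologues of selenoproteins, led by Msrb2 at 92.8 CPM, 0 were called. Across all of these lists sex was called for Gsta4 alone, lower in females by -0.54 ± 0.25 (unadjusted p = 0.0361, adjusted p = 0.573). Within single regions Slc7a11, the cystine importer, was called higher in females in the midbrain (0.50 ± 0.23), and Txnrd2, Scly, Srxn1 and Gsta4 were called lower in females in the PFC, with adjusted p of 0.730 to 0.783, beside 0.878 for Slc7a11.

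Some counts cannot be assigned with certainty, since neither strand nor the treatment of reads with several matches is given. Selenoh shares its locus with Gm28635 on the same strand, Selenop overlaps Ccdc152 (0.284 CPM) on the other strand, Txnrd1 overlaps Eid3, and Selenok and Gpx4 have pseudogenes, of which Selenok-ps1, the highest measured, had 0.469 CPM.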

How the data were processed

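RNA of tdTomato positive microglia was read as Smart-Seq HT cDNA and Nextera XT libraries, without molecular identifiers. The authors trimmed paired reads with Trimmomatic, aligned them to GRCm38 with HISAT2, removed genes under 1 CPM in every subgroup of sex and region, and deposited raw counts per Ensembl gene. The counter, its annotation, and its use of strand and of reads with several matches are not given in the sources used here. Mouse numbers came from the sample titles, and 1 column whose name gives the PFC of mouse 3 was taken, from its label, as striatum.

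From the counts, TMM factors, CPM, log2 CPM (prior count 2) and RPKM on GENCODE M21 exonic length were computed with edgeR 4.0.16 in R 4.3.3. All 21236 genes were fitted by robust quasi-likelihood with region and sex (additive), or with all 6 combinations of both for sex within a region and for the interaction, and p-values were adjusted by Benjamini-Hochberg over all genes. The cut-offs are those of the study; pairs of regions and sex used unadjusted p-values. Single values per mouse used exact two-sided tests. Regions of a mouse are paired by its number, which marks the same animal: deviations from group means correlated at a mean r of 0.225 over 34 pairs of the same mouse and -0.043 over 170 pairs of different mice of 1 sex. DESeq2 1.42.0 and limma 3.58.1 served as alternatives, and figures used Python 3.11.15 with matplotlib 3.10.9. The steps were tested on simulated data. The members and lists were chosen with earlier results of these data known. Named genes are all members, genes of the lists that were called or highest in their list, and the 3 genes most like each member called for region. Markers of other cells not in the table are not analysed here. At 3 counts a gene has 0.0554 to 0.0796 CPM, and PCR copies are counted, so depth covers counting error only.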

Additional observations from a re-analysis of the deposited data

Results flagged for a closer look

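Each member was tested for a sample far from the rest of its group in the 6 groups of region and sex, 60 groups in all, of which chance flags about 1 in 20. The gap to the nearest sample, as a share of the group's range, passed Dixon's limit in 5. Gpx3 in the female midbrain had 17.2 CPM in mouse 6, where the other females had 0 to 1.19 CPM, and that sample also had the highest sum of border macrophage markers. Gpx3 in the male PFC had 1.65 CPM in mouse 1, where the others had 0.101 to 0.266 CPM. Txnrd1 in the male PFC had 99.7 CPM in mouse 11 against 29.05 to 43.6 CPM. In the PFC of male mouse 5, Selenok had 338 CPM against 222.9 to 250.8 and Gpx1 1359 CPM against 811 to 966. All but the first lie in the male PFC, the smallest group with 5 samples, and mice 5 and 11 had the highest neuronal sums there. Mouse 1, flagged for Gpx3, had the lowest there, 11.5 CPM. The part of neuronal RNA in these values was not tested.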

How the results depend on the processing

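Counts of called members stayed within 1.5 times of those reported with DESeq2, DESeq2 size factors, filterByExpr, offsets on length and GC, no minimum on the fold change and without the striatum sample of mouse 3. With the replicate block (pairing by mouse), with limma-voom and the mouse as a random effect, with offsets and the block, and with a term for mice 1 to 6 against 7 to 12, 1 member was called for striatum over midbrain, not 2; the block changed no other call of a pair of regions than those of Gpx3. The index of other brain cells gave 0 calls for striatum over PFC, as did taking mouse 3's sample as the PFC that its column name gives, which was chosen after seeing the data. At an adjusted p for each contrast, calls were 1 for striatum over midbrain, 0 for striatum over PFC, and 1, 0 and 0 for sex in midbrain, striatum and PFC. Mice 1 to 6 alone gave 0 calls for the region effect and each pair; mice 7 to 12 alone gave 1, 1, 1 and 0. Leaving out 1 mouse gave 1 to 3 calls for region, 1 to 3 for PFC over midbrain, 1 to 2 for striatum over midbrain, 0 to 1 for striatum over PFC, 4 to 4 for sex, 3 to 5, 3 to 4 and 2 to 5 for sex in midbrain, striatum and PFC, and 0 to 0 for the interaction. The cause of these changes was not tested.

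Differences that changed sign were not called in either fit. With limma-voom, log2 values were 0.0065 for Selenow (striatum over PFC), -0.36 for Gpx3 (sex) and 0.021 for Txnrd1 (sex). With offsets they were 0.023 for Selenow (striatum over PFC) and -0.0043 for Gpx4 (striatum over midbrain), and with offsets and block 0.011 for Selenow and 0.0012 for Selenop (striatum over PFC). With the index, Selenoh had 0.037 and Selenom -0.024 (striatum over midbrain). The mice term gave 0.0038 for Txnrd1 (sex) and 0.039 for Selenon (PFC over midbrain). Mice 1 to 6 alone gave 0.12 for Txnrd1 and -0.0060 for Gpx4 (sex), -0.029 for Gpx4 and -0.017 for Selenom (striatum over midbrain), 0.34 for Selenon (PFC over midbrain), and -0.28 for Gpx3 and 0.15 for Txnrd1 (striatum over PFC). Mice 7 to 12 alone gave -0.027 for Gpx3 and -0.049 for Selenop (sex), 0.082 for Txnrd1 (PFC over midbrain) and 0.0072 for Gpx4 (striatum over PFC). Leaving out 1 mouse gave, for sex, -0.27 to 1.04 for Gpx3, -0.042 to 0.12 for Gpx4, -0.088 to 0.043 for Selenok, -0.053 to 0.61 for Selenon, -0.031 to 0.049 for Selenop and -0.076 to 0.15 for Txnrd1; for PFC over midbrain, -0.14 to 0.15 for Selenon and -0.20 to 0.037 for Txnrd1; for striatum over midbrain, -0.0069 to 0.078 for Selenom; and for striatum over PFC, -0.064 to 0.017 for Gpx4 and -0.061 to 0.071 for Selenow. Depth limits Gpx3, whose lowest samples were at 0 counts.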
